A study of Mus musculus with 6 samples.

Results

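The genes described here are those of the thioredoxin and peroxiredoxin system outside mitochondria, with the cytosolic superoxide dismutase and catalase. They were *Txn1*, *Txnrd1*, *Txnrd3*, *Txnip*, *Prdx1*, *Prdx2*, *Prdx4*, *Prdx6*, *Sod1*, and *Cat*. Members were found by name, through the RefSeq accession of each array probe, by a rule that names genes and uses no measured value. All 10 genes had a probe, giving 16 of the 39429 probes on the array and 10 of its 20659 named genes. All 16 were detected on enough arrays to be tested, and 12 were detected on all 6.

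Gene expression was measured in interscapular brown adipose tissue (iBAT) of male C57BL/6 mice aged 16 weeks, with 1 Agilent single-dye array per sample. There were 3 control samples and 3 samples of *ob/ob* mice, which carry a mutation of the leptin gene in every cell and become obese without a special diet. Neither group is labelled with a treatment or diet. The study is about mitochondrial thioredoxin in brown fat, and these arrays compare brown fat of obese and control mice. The labels do not say whether a sample pooled the RNA of several mice, so the p values measure the spread between these samples.

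Thioredoxin is a small protein that reduces disulfide bonds in other proteins and is recharged by thioredoxin reductase with NADPH. TXNIP, an alpha-arrestin whose transcription follows glucose, binds and inhibits thioredoxin. Peroxiredoxins reduce hydrogen peroxide with a reactive cysteine, which thioredoxin then restores in most of the family. SOD1 turns superoxide into hydrogen peroxide, and catalase breaks hydrogen peroxide down without a reductant. The name cytosolic is loose for a few members, because PRDX4 works in the endoplasmic reticulum, catalase in peroxisomes, and TXNRD3 is best known from testis. Brown fat burns fuel at a high rate in mitochondria, which hold their own set of these enzymes, namely TXN2, TXNRD2, PRDX3, PRDX5, and SOD2.

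NRF2, the transcription factor of the oxidative stress response, binds the antioxidant response element, and several members are known as its targets. The core of this element was searched as TGACNNNGC on either strand in the 250 bases before each RefSeq start (build GRCm38.p6). The table of promoters gave 11 starts for 9 of the genes, with none for *Prdx6*. The core was present before 3 of the 11 starts, against 10.2% of 32851 promoters. The windows that hold it are shown because the estimated changes of their genes on these arrays did not share a sign. Capitals mark the core, and each window is written 5′ to 3′ on its gene's strand, which is the plus strand for all of them.
Prdx1 (chr4:116685349-116685598): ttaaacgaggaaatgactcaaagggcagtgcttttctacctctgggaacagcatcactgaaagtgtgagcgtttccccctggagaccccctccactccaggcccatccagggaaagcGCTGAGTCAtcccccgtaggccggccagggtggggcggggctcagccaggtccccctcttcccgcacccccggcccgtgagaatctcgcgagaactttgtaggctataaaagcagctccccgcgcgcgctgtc
Txnrd1, start 2 (chr10:82858956-82859205): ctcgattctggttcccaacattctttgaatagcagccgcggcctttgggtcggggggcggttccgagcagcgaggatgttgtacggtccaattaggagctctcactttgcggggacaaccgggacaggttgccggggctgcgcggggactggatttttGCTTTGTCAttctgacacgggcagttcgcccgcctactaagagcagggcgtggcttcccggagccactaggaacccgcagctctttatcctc
Sod1 (chr16:90220512-90220761): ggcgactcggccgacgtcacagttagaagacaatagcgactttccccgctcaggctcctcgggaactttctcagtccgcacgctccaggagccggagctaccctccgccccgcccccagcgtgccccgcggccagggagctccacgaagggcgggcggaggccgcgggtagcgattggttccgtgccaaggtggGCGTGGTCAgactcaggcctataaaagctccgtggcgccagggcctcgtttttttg
The core lay 133 bases before the *Prdx1* start, 92 bases before this *Txnrd1* start, and 56 bases before the *Sod1* start. The window before *Txn1* (chr4:57956412-57956661, minus strand) held no match to it. CACGTG, the E-box that factors of the glucose response use, was found before 1 of the 11 starts, that of *Prdx4*. It was present in 6.02% of all promoters and not in the *Txnip* window. Only these exact letters were searched. The *Txnip* window holds the near match CACGAG, so the search does not show whether a site for such factors is absent there. ATTGG, the CCAAT box read on the other strand and searched on either strand, was found before 5 of the 11 starts against 33.8%, with 4 matches before *Cat* (chr2:103485154-103485403, minus strand). These matches are descriptions of the letters in the windows.

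Array 3 of each group stood apart from the other arrays of its group. Over all probes tested, rank correlations of control 3 were 0.64 and 0.73 with the other controls and 0.91 and 0.94 with *ob/ob* 1 and 2, and *ob/ob* 3 correlated best with control 1, at 0.86. On the first principal component (76.7% of variance), control 3 lay on the side of *ob/ob* 1 and 2, and *ob/ob* 3 on the side of control 1 and 2. Spots well above background ranged from 83.5% to 89.9% per array, and no array had a saturated spot. The 75th percentile of signal before normalization was 292, 235, and 94.5 in control and 134, 165, and 140 in *ob/ob* iBAT, lowest on control 3. Of the 4 scans, 1 held control 1, control 3, and *ob/ob* 1. Whether samples were exchanged was not tested, and the labels were kept. *Zic1*, a brown adipocyte marker, had log2 signals of 9.66, 10.43, and 9.08 in control and 7.97, 7.90, and 7.06 in *ob/ob* iBAT on its brighter probe. This probe had both arrays 3 on the side of their labels, while the other *Zic1* probe changed by 0.51 ± 0.37. The brown adipocyte markers *Ucp1*, the uncoupling protein of thermogenesis, and *Cidea*, a lipid droplet protein, were detected on all 6 arrays. Both were lower on control 3 (9.48 and 11.16) than on *ob/ob* 3 (10.03 and 12.38). Of the 9 brown adipocyte markers, 3 were lower in *ob/ob* iBAT without overlap, against 7.92% of all probes in either direction. Among these 3, *Elovl3* was not well above background on any *ob/ob* array. It entered the tests only because it was detected on the 3 control arrays, so its separation is no support for a difference. *Lep*, the mutated gene, had log2 signals of 4.57 to 5.74 in control and 5.83 to 9.33 in *ob/ob* iBAT, and its transcript level does not show the mutation.

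No member probe passed the test between groups. Among the 35448 probes tested, none passed an adjusted p of 0.05, so 0% were called in the background, and 0 of 16 member probes were. An unadjusted p under 0.05 was reached by 3.51% of all probes and by none of the member probes, whose p values ran from 0.098 to 0.93 (limma). In 1 of the 16 the groups did not overlap, against 7.92% of all probes. On the brightest probe of each gene, taken as the one with the highest mean over the arrays, 5 genes were higher and 5 lower in *ob/ob* iBAT, with a median log2 change of −0.0035. The median over all probes tested was −0.073. In 13 of 16 member probes *ob/ob* 3 was above the other *ob/ob* arrays, and in 13 of 16 control 3 was below the other controls. The highest of the 6 values was on *ob/ob* 3 for 10 probes, and the lowest was on control 3 for 10. All values are log2 signals after quantile normalization, and levels of different probes are not comparable with each other.

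**Figure D1:**
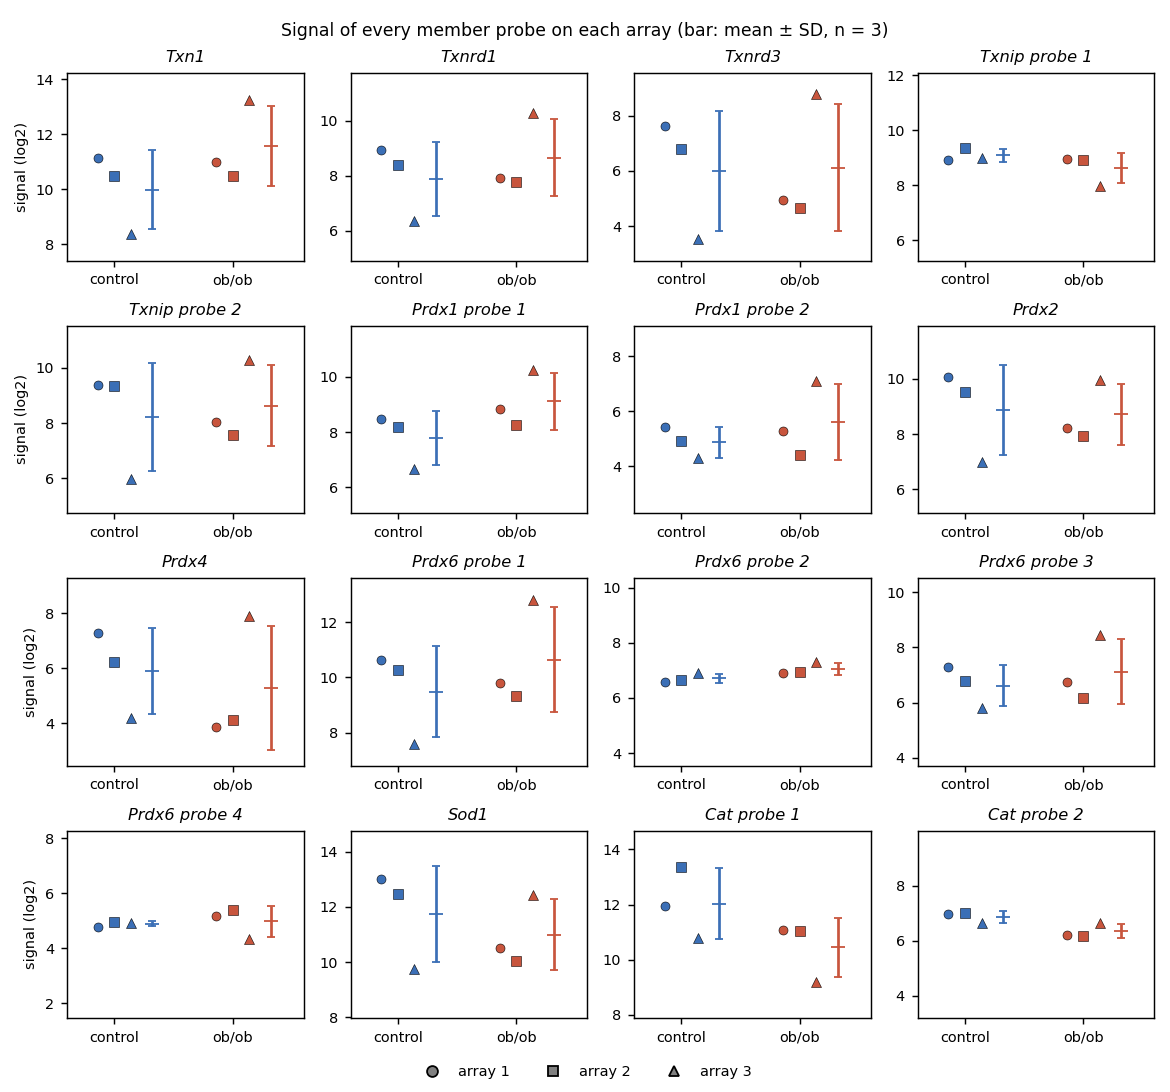
Log2 signal (y axis) of each of the 16 member probes on the 3 control arrays (blue) and the 3 *ob/ob* arrays (red), with marker shape for the array number and bars for mean ± SD. Each panel spans the same number of log2 units around its own center. Triangles, which are array 3 of each group, lie at the bottom of the controls and at the top of the *ob/ob* arrays in most panels.

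*Txn1*, the cytosolic thioredoxin, had the largest positive change among the member probes. Its log2 signals were 11.13, 10.47, and 8.38 in control and 10.98, 10.50, and 13.25 in *ob/ob* iBAT. Arrays 1 and 2 of the groups lay close together, while control 3 was the lowest and *ob/ob* 3 the highest of the 6. The change was 1.58 ± 0.98 (SE), a 2.99-fold higher mean, with a 95% interval of −0.80 to 3.96 (limma, adjusted p = 1.0, n = 3 per group). An exact two-sided permutation test gave p = 0.40, where 0.10 is the smallest value that 3 arrays against 3 can give.

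*Txnrd1*, the reductase that recharges cytosolic thioredoxin, had signals of 8.93, 8.39, and 6.37 in control and 7.93, 7.76, and 10.27 in *ob/ob* iBAT. Its change was 0.76 ± 0.94. *Txnrd3*, a reductase with an added glutaredoxin domain, had signals of 7.63, 6.80, and 3.52 against 4.93, 4.67, and 8.78, and was not well above background on control 3. Its change was 0.14 ± 1.48, the widest error among the members. In each reductase *ob/ob* 1 and 2 were below control 1 and 2, and *ob/ob* 3 was above every control.

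*Txnip*, the thioredoxin inhibitor, was read by 2 probes with unlike profiles. The brighter probe had signals of 8.91, 9.35, and 9.002 in control and 8.95, 8.93, and 7.98 in *ob/ob* iBAT, so that only *ob/ob* 3 stood apart, at the low end. Its change was −0.46 ± 0.40. The other probe had signals of 9.38, 9.33, and 5.97 against 8.02, 7.55, and 10.29, with *ob/ob* 3 at the high end. Its change was 0.39 ± 1.16. The 95% intervals of both probes included 0.

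*Prdx1*, an abundant peroxiredoxin that also acts as a chaperone, was higher in mean signal on both of its probes. The brighter one had signals of 8.48, 8.19, and 6.65 in control and 8.83, 8.25, and 10.26 in *ob/ob* iBAT. Only *ob/ob* 2 lay within the control range, below control 1. The change was 1.34 ± 0.71, a 2.53-fold higher mean with a 95% interval of −0.39 to 3.07 (unadjusted limma p = 0.11, exact permutation p = 0.20, adjusted p = 1.0). The dimmer probe, detected on 4 of 6 arrays, changed by 0.73 ± 0.74.

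*Prdx2*, the peroxiredoxin best known from red blood cells, had signals of 10.07, 9.52, and 6.996 in control and 8.23, 7.94, and 9.98 in *ob/ob* iBAT. Its change was −0.15 ± 0.95. *Prdx4*, the form of the secretory pathway, had signals of 7.29, 6.22, and 4.19 against 3.87, 4.11, and 7.88. It was well above background on only 3 arrays, namely control 1, control 2, and *ob/ob* 3, and changed by −0.62 ± 1.29. In both genes, control 1, control 2, and *ob/ob* 3 were above the other arrays.

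*Prdx6*, which uses glutathione in place of thioredoxin and also acts as a phospholipase, was read by 4 probes. The brightest had signals of 10.62, 10.26, and 7.58 in control and 9.78, 9.32, and 12.82 in *ob/ob* iBAT, and changed by 1.15 ± 1.19. A second probe had signals of 6.59, 6.66, and 6.90 against 6.91, 6.96, and 7.30, and was the only member probe whose groups did not overlap. Its change was small, at 0.34 ± 0.31 (unadjusted limma p = 0.31, exact permutation p = 0.10). The other probes changed by 0.50 ± 0.71 and 0.09 ± 0.39. The 4 estimates shared a sign, but the array with the lowest signal was control 3 for 2 of them, control 1 for 1, and *ob/ob* 3 for 1.

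*Sod1*, the copper-zinc superoxide dismutase of the cytosol, had signals of 13.00, 12.47, and 9.74 in control and 10.52, 10.03, and 12.45 in *ob/ob* iBAT. Control 3 was the lowest of all, and *ob/ob* 3 was close to control 2. The change was −0.74 ± 1.04. *Sod1* and *Prdx1*, both with the antioxidant response element core in the printed windows, had estimates of opposite sign, each with an interval that includes 0. Regulation through this core was not tested.

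*Cat*, catalase, was lower in mean signal on both of its probes. The brighter probe had signals of 11.93, 13.36, and 10.80 in control and 11.08, 11.04, and 9.21 in *ob/ob* iBAT. Control 3 was the only control within the *ob/ob* range. The change was −1.59 ± 0.82, a 3.005-fold lower mean with a 95% interval of −3.56 to 0.39 and the lowest unadjusted p of any member probe (limma p = 0.098, exact permutation p = 0.30, adjusted p = 1.0). The other probe had signals of 6.97, 7.01, and 6.63 against 6.22, 6.18, and 6.63, and changed by −0.52 ± 0.32. The brighter probe spanned 4.15 log2 units over the arrays and the other 0.83, and their lowest arrays differed, being *ob/ob* 3 and *ob/ob* 2.

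Within the scan that held arrays of both groups, *ob/ob* 1 minus the mean of control 1 and 3 was 1.22 for *Txn1*, 1.26 for *Prdx1*, −0.86 for *Sod1*, and −0.28 for the brighter *Cat* probe. For *Txnrd3* it was −0.65, opposite in sign to the value over all arrays.

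The values without control 3 and *ob/ob* 3 are given as a description. These arrays were left out because they resembled the other group over all probes, which by itself raises the number of probes that pass. With 2 arrays per group, 9 of 16 member probes passed an adjusted p of 0.05, against 45.9% of all probes tested, so the share is near the background and is no result about the members. They were *Txnrd1* (log2 change −0.81), *Txnrd3* (−2.42), the dimmer *Txnip* probe (−1.57), *Prdx2* (−1.71), *Prdx4*, which was not well above background on the *ob/ob* arrays kept, the brightest *Prdx6* probe (−0.89), *Sod1* (−2.46), and the *Cat* probes (−1.58 and −0.79). On the same arrays the markers *Ucp1* (−3.36), *Cidea* (−5.12), *Myh4* of skeletal muscle (−7.74), and *Kdr* of endothelium (−5.96) had larger changes than any member. This did not hold for all markers of their lists. *Dio2* of brown adipocytes changed by −0.61, and *Mylpf* of skeletal muscle (1.64) and *Pecam1* of endothelium (1.42) were higher. *Txn1*, at −0.06, and *Prdx1*, at 0.21 on its brighter probe, were not among the member probes that passed. The sign of *Txn1*, *Txnrd1*, *Txnrd3*, *Prdx6* probes 1 and 3 in order of brightness, and the dimmer *Txnip* and *Prdx1* probes thus depended on these arrays.

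**Figure D2:**
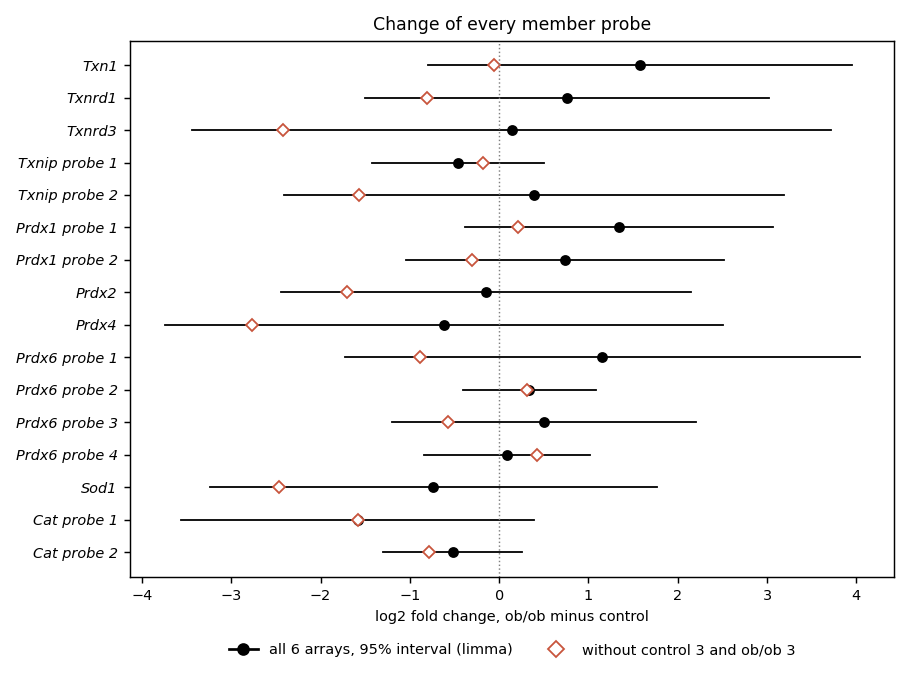
Log2 change, *ob/ob* minus control (x axis), of each member probe (y axis). Filled points with lines are limma estimates over all 6 arrays with 95% intervals, all of which include 0, and open diamonds are the estimates without control 3 and *ob/ob* 3. Diamonds lie to the left of the points for most probes, while those of the brighter *Cat* probe nearly coincide at −1.59 and −1.58.

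Because the arrays of a group differed in a shared way, the members other than *Txnip* and *Cat*, which have no mitochondrial counterpart here, were also set against the mitochondrial enzyme of the same family on the same array. The difference between 2 probes on 1 array has no meaning as a level, since probes differ in brightness. Its change between groups shows whether the 2 probes changed unequally. Probes of 1 gene also did so here, as with −1.59 and −0.52 for *Cat*, so an unequal change of probes need not be one of genes. These pairs were chosen after the values were seen, and all 12 pairs within a family were taken. In 6 of 12 pairs the groups did not overlap, 5 of them higher and 1 lower in *ob/ob* iBAT. Over all probes the share was 5.5% to 24.5%, depending on the mitochondrial probe. Several pairs share a probe, so the 12 are not independent. None passed an adjusted p of 0.05 (limma over all probes minus the same mitochondrial probe). An unadjusted limma p under 0.05 was reached by 2, with *Txn1* and *Txnrd1* as their members. Its share over all probes was not computed, so this count is no result about the members. Against *Txn2* and *Txnrd2*, 24.5% and 18.9% of all probes had groups apart.

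*Txn1* minus *Txn2* was −0.31, −1.12, and −1.40 in control and 1.45, 1.12, and 3.62 in *ob/ob* iBAT, so every *ob/ob* array was above every control. The difference was 3.01 ± 0.96 higher on the log2 scale (unadjusted limma p = 0.0020, exact permutation p = 0.10, adjusted p = 0.098). Against the same *Txn2* probe, the groups did not overlap for 24.5% of all probes. In that fit 283 of 35447 probes passed an adjusted p of 0.05, 281 of them higher, and *Txn1* was not among them. Without control 3 the difference was 2.78 with an adjusted limma p of 0.028. There 84.2% of all probes had groups apart against *Txn2*, and the share passing the adjusted test was not computed. With normexp background correction the difference was 2.75 with an adjusted limma p of 0.048. The adjusted p ranged from 0.091 to 0.91 over the other alternatives except the removal of both arrays 3. *Txn2*, the mitochondrial thioredoxin that the study deletes in other mice, was itself lower, with signals of 11.43, 11.60, and 9.79 against 9.53, 9.37, and 9.62, and changed by −1.43 ± 0.54 (unadjusted limma p = 0.037, exact permutation p = 0.10, adjusted p = 1.0).

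*Txnrd1* minus *Txnrd2* was −1.73, −2.10, and −0.84 in control and 1.24, 1.17, and 1.51 in *ob/ob* iBAT, a difference of 2.86 ± 1.07 (unadjusted limma p = 0.024, exact permutation p = 0.10, adjusted p = 0.34). The *ob/ob* arrays lay close together here, array 3 included. Without control 3 the difference was 3.22 with an adjusted limma p of 0.038. There 92.2% of all probes had groups apart against *Txnrd2*, and the share passing the adjusted test was not computed. Over the other alternatives, except the removal of both arrays 3, the adjusted p ranged from 0.16 to 0.73. *Txnrd3* minus *Txnrd2* was −3.02, −3.69, and −3.70 against −1.76, −1.93, and 0.01, a difference of 2.24 ± 1.12. Against the same *Txnrd2* probe, 18.9% of all probes separated the groups. *Txnrd2* changed by −2.10 on its own.

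*Prdx1* minus *Prdx3*, the main mitochondrial peroxiredoxin, was 0.44, 0.31, and 0.58 in control and 1.02, 1.02, and 1.58 in *ob/ob* iBAT. The difference was 0.76 ± 0.70, and 9.29% of all probes separated the groups against the same *Prdx3* probe. *Prdx1* minus *Prdx5* was 0.31, 0.77, and 0.37 against 1.35, 1.35, and 1.81, a difference of 1.02 ± 0.70, where 5.5% of all probes separated the groups. The SDs within groups were 0.14 to 0.32 for these pairs, smaller than the 0.98 and 1.04 of *Prdx1* alone. The groups overlapped in the pairs of *Prdx2*, *Prdx4*, and *Prdx6* with *Prdx3* and *Prdx5*, with differences from −1.20 to 0.83.

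*Sod1* minus *Sod2*, the mitochondrial superoxide dismutase, was 2.35, 2.71, and 2.04 in control and 0.43, 0.59, and 0.81 in *ob/ob* iBAT. It was the only pair in which the member was lower without overlap, by a log2 difference of −1.75 ± 0.82 (unadjusted limma p = 0.062, exact permutation p = 0.10, adjusted p = 0.72). Against the same *Sod2* probe, 12.5% of all probes separated the groups. *Sod2* changed by 1.02 on its own. Within the shared scan the differences were 2.31 for *Txn1* minus *Txn2*, 2.53 for *Txnrd1* minus *Txnrd2*, and −1.76 for *Sod1* minus *Sod2*.

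**Figure D3:**
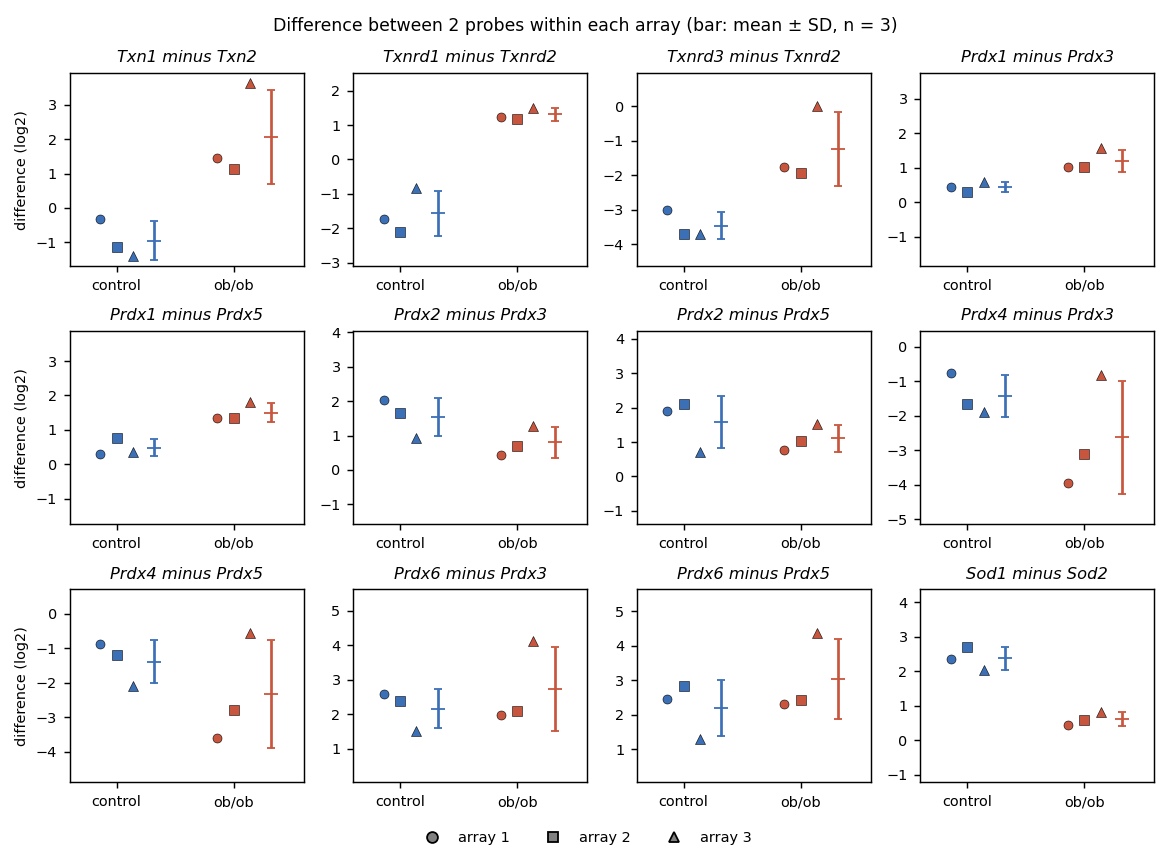
Log2 difference between a member probe and a mitochondrial probe of the same family on each array (y axis), for the 3 control arrays (blue) and the 3 *ob/ob* arrays (red), with mean ± SD. All *ob/ob* points are above all control points for *Txn1*, *Txnrd1*, *Txnrd3*, and *Prdx1*, and below them for *Sod1*. The groups overlap in the other 6 panels.

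The other genes of the pathway were read on their brightest probes. After adjustment, none of them passed 0.05. For the counts by direction below, 56.4% of all probes tested were lower in *ob/ob* iBAT. Of 15 thioredoxin and glutaredoxin relatives, 9 were higher and 6 lower, with a median log2 change of 0.05. In 2 of them the unadjusted p was under 0.05 and the groups did not overlap. Over all probes, 3.51% had such a p and 7.92% had groups apart. The share with both was not computed, so the count is no result about this list. For *Glrx*, the 3 *ob/ob* arrays alone would meet the detection filter, so its p values are little support for a difference. *Glrx*, the cytosolic glutaredoxin, had signals of 4.25, 3.24, and 3.43 in control, where it was well above background on 1 array, and 5.31, 4.68, and 7.83 in *ob/ob* iBAT (change 2.30 ± 0.85, unadjusted limma p = 0.034, exact permutation p = 0.10, adjusted p = 1.0). *Txndc9*, a thioredoxin-like regulator of protein folding, had signals of 7.48, 6.97, and 6.27 against 7.83, 7.94, and 9.17 (change 1.41 ± 0.52, unadjusted limma p = 0.035, exact permutation p = 0.10, adjusted p = 1.0).

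Of 18 partners of the reductases and peroxidases, among them sulfiredoxin, sestrins, methionine sulfoxide reductases, and ribonucleotide reductase, 6 were higher and 12 lower, with a median of −0.20. None of them combined an unadjusted p under 0.05 with groups apart. Of 8 alpha-arrestins and sugar-sensing factors, the relatives and regulators of *Txnip*, 1 was higher and 7 lower, with a median of −0.22. Of 7 glutathione peroxidases, which remove peroxide with glutathione, 2 were higher and 5 lower, with a median of −0.67. Neither list had a gene with an unadjusted p under 0.05.

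Of 22 tested genes of peroxisome biogenesis and peroxisomal oxidases, the surroundings of catalase, 7 were higher and 15 lower, with a median of −0.17. *Hao1*, a peroxisomal oxidase that produces hydrogen peroxide, was the only one with an unadjusted p under 0.05 and groups apart. It was not well above background on any control array, with signals of 1.79, 1.73, and 4.10, and had signals of 5.12, 5.26, and 4.54 in *ob/ob* iBAT. Set against the lowest signal well above background on each control array, or its own where higher, it was at least 2.08-fold higher. The tests used the measured signals and do not test this bound (unadjusted limma p = 0.013, exact permutation p = 0.10, adjusted p = 1.0). *Hao1* also entered them only because it was detected on the 3 *ob/ob* arrays, so its p values are no support for a difference.

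The signals of cell type markers also differed between arrays. In whole tissue, fewer cells of a type cannot be told apart from less RNA per cell. All 9 brown adipocyte markers were lower in mean signal in *ob/ob* iBAT, with a median log2 change of −2.08, and their summed signal (log2) ranged from 12.7 to 16.5 in control and from 12.07 to 13.6 in *ob/ob* iBAT. The summed signal of 8 skeletal muscle markers ranged from 12.08 to 15.9 in control and from 9.27 to 16.7 in *ob/ob* iBAT, highest on *ob/ob* 3, where most member probes were highest too. The 7 erythroid markers ranged from 11.9 to 14.9 and from 12.2 to 16.2, also highest on *ob/ob* 3. The 7 macrophage markers ranged from 12.6 to 13.9 and from 11.2 to 12.7. This sum is mostly 1 *Itgam* probe, and other markers of the list had other profiles, such as *Csf1r*, lowest on control 2. The endothelial markers ranged from 12.6 to 13.3 and from 11.8 to 12.6, the white adipocyte markers from 10.2 to 11.1 and from 9.99 to 11.6, and the lymphocyte markers from 9.24 to 9.58 and from 8.39 to 9.44. The part of these cell types in the members' values was not tested.

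**Figure D4:**
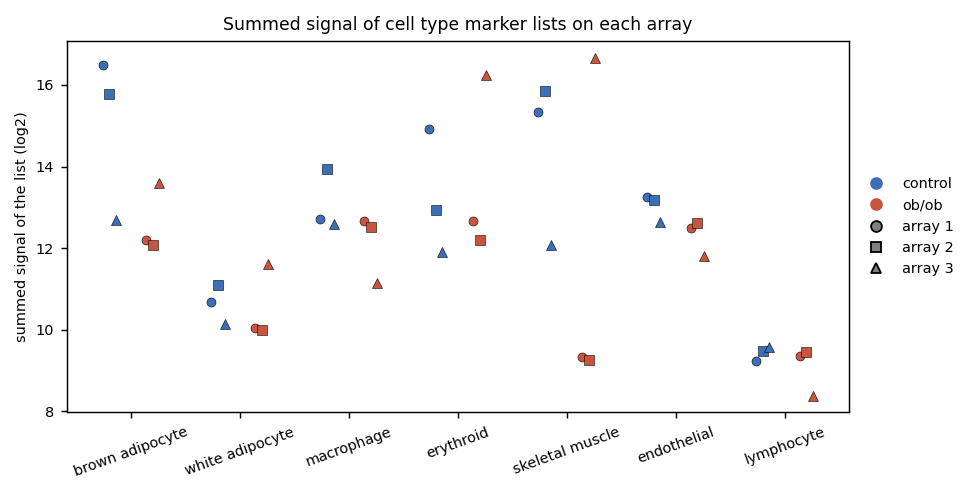
Summed signal of each marker list (log2, y axis) on the 3 control arrays (blue) and the 3 *ob/ob* arrays (red), with marker shape for the array number. Skeletal muscle spans the widest range, from 9.27 to 16.7, with *ob/ob* 1 and 2 at the bottom and *ob/ob* 3 at the top.

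The genes with profiles most like *Txn1* were *Ppia*, a peptidyl-prolyl isomerase, *Chp1*, a calcium-binding protein, and *Vim*, the intermediate filament vimentin. After each probe was centered on its own mean, they differed from *Txn1* by a root mean square of 0.17 to 0.18 log2 units over the 6 arrays, among 15966 genes detected on all of them. *Ppia*, for example, had signals of 12.36, 11.84, and 9.45 in control and 12.13, 11.49, and 14.71 in *ob/ob* iBAT, with the same low control 3 and high *ob/ob* 3. The nearest to the brighter *Txnip* probe were *Olfr1039*, *Ccm2l*, and *Nxf7*, at 0.07 to 0.08 log2 units, each lowest on *ob/ob* 3.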

How the data were processed

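RNA of iBAT from 3 control and 3 *ob/ob* samples was hybridized to 1 single-dye array each. The authors deposited the output of Agilent Feature Extraction (version 11.0.1.1 in the submitters' processing notes), in which the intensity of each spot was background-corrected within its array but not normalized between arrays. Their own log2 values, which the authors quantile normalized in GeneSpring, served as an alternative only.

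After outlier-flagged spots were removed, the log2 values of each probe's remaining spots were averaged (104 of 39429 probes lost all spots on an array), values were quantile normalized, and 35448 probes with at least 50% of spots well above background on at least 3 of 6 arrays entered a limma fit (limma 3.58.1, R 4.3.3) with Benjamini-Hochberg adjustment. Precision is limited by the small number of arrays. Names were found for 27234 of the 28684 RefSeq-based probes through the RefSeq annotation of GRCm38.p6, which also gave the promoters and is used for no array position. Probes may read near-identical gene copies, which was not tested. Figures were drawn with Python and matplotlib. The limma code was tested on simulated data.

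The members, gene lists, and rules were chosen with earlier results of these data known. Named are all member probes, *Lep*, *Ucp1*, *Cidea*, listed genes with an unadjusted p under 0.05 and no overlap, and the 3 genes nearest in profile to *Txn1* and *Txnip*. A gene of the marker lists is not reported here, and the lists are without it. The mitochondrial genes paired with members, and the genes nearest to *Cat*, were added after values were seen. The alternatives were 75th percentile scaling, normexp, the authors' table, other detection filters, the methods' t-test, a trended and robust limma fit, replicate and scan blocks, the mean of a gene's probes, and arrays left out.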

Additional observations from a re-analysis of the deposited data

How the results depend on the processing

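No member probe passed an adjusted p of 0.05 under any alternative but the removal of control 3 together with *ob/ob* 3, where 9 passed, 9 had an unadjusted p under 0.05, 12 of 16 did not overlap (73.1% of all probes), and 12 of 12 pairs did not overlap (51.1% to 99.0% of all probes against the same mitochondrial probes), the last an alternative chosen after seeing the data, as were those of the other pairs. Without 1 array at a time, member probes without overlap ranged from 1 to 4 (8.74% to 29.0% of all probes), those with an unadjusted p under 0.05 from 0 to 1, pairs without overlap from 6 to 9 (5.98% to 92.2% of all probes), and the median change of the brightest probes from −0.79 to 0.71. Without control 3 the median was −0.79, and without *ob/ob* 3 it was −0.46. Between arrays with the same replicate number, deviations from the group means correlated at −0.78, −0.66, and −0.85. Control 3 and *ob/ob* 3, which stood apart in opposite directions, enter every group mean. These values therefore cannot decide whether the replicate numbers paired the samples. Apart from the removal of both arrays, an adjusted p under 0.05 was reached among the pairs by *Txn1* minus *Txn2* with normexp and without control 3, and by *Txnrd1* minus *Txnrd2* without control 3. The share of all probes that passed in these fits was not computed. With the replicate block, 1 member probe had an unadjusted p under 0.05 and 0 passed after adjustment. Over all probes, the 1245 with an unadjusted p under 0.05 became 418 with 75th percentile scaling, 359 with the replicate block, 148 with the scan block, and 285 to 3484 without 1 array, and 1 probe passed after adjustment with the trended and robust fit.

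The signs of *Txn1*, *Txnrd1*, *Txnrd3*, *Txnip*, *Prdx1*, *Prdx2*, *Prdx4*, and *Prdx6* each turned on at least 1 probe under at least 1 alternative. With 75th percentile scaling the dimmest *Prdx6* probe was −0.38. With the scan block *Txnrd3* was −0.65 and *Prdx6* minus *Prdx3* −0.076. Without single arrays, values of the opposite sign were reached within these ranges of the log2 change, namely −0.048 to 1.27 for *Txnrd1*, −1.19 to 0.96 for *Txnrd3*, −0.74 to 0.97 for the dimmer *Txnip* probe, −0.017 to 1.33 for the dimmer *Prdx1* probe, −1.08 to 0.46 for *Prdx2*, −1.92 to 0.093 for *Prdx4*, −0.16 to 0.98 and −0.13 to 0.40 for *Prdx6* probes 3 and 4 in order of brightness, and −0.13 to 0.95 for *Prdx6* minus *Prdx3*. Without control 3 and *ob/ob* 3 together, the values were −0.062 for *Txn1*, −0.81 for *Txnrd1*, −2.42 for *Txnrd3*, −1.57 for the dimmer *Txnip* probe, −0.30 for the dimmer *Prdx1* probe, −0.89 and −0.57 for *Prdx6* probes 1 and 3, and −0.45 and −0.28 for *Prdx6* minus *Prdx3* and minus *Prdx5*. The cause was not tested. The brighter *Prdx1* probe stayed higher (0.21 to 1.77) and *Sod1* (−2.46 to −0.10) and the brighter *Cat* probe (−2.20 to −0.28) lower under all alternatives run. *Prdx6* probe 2 also stayed higher (0.17 to 0.43), and the brighter *Txnip* probe (−0.63 to −0.003) and the dimmer *Cat* probe (−0.79 to −0.28) lower. *Txn1* minus *Txn2* (2.003 to 3.48), *Txnrd1* minus *Txnrd2* (2.33 to 3.22), and *Sod1* minus *Sod2* (−2.02 to −1.58) kept their sign under all 13 alternatives run for pairs. The pairs of *Txnrd3*, *Prdx1*, *Prdx2*, and *Prdx4* did so too, and only those of *Prdx6* turned.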

Other observations

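The genes nearest in profile to the brighter *Cat* probe, a probe chosen for this after its values were seen, were *Trim56*, a ubiquitin ligase of antiviral signaling, *Itgam*, the integrin chain CD11b of myeloid cells, and *Fmn2*, an actin nucleator. They differed from it by a root mean square of 0.11, 0.19, and 0.25 log2 units over the 6 arrays after centering. *Itgam* had signals of 12.51, 13.82, and 11.43 in control and 11.67, 11.54, and 10.25 in *ob/ob* iBAT, highest on control 2 and lowest on *ob/ob* 3 like that *Cat* probe, with a log2 change of −1.43. The other *Itgam* probes changed by −0.15 and 0.28, and *Csf1r*, another myeloid marker, by 1.12. The dimmer *Cat* probe was nearest to *Med12*, *Il17rc*, and *Sars*, at 0.05 to 0.06 log2 units, so the probes of 1 gene had different neighbors.

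*Apex1*, which repairs DNA and reduces transcription factors with thioredoxin, was singled out after its values were seen. It had signals of 5.72, 5.93, and 7.10 in control and 8.48, 8.64, and 6.99 in *ob/ob* iBAT, a change of 1.79 ± 0.61 (unadjusted limma p = 0.025, exact permutation p = 0.20, adjusted p = 1.0), with *ob/ob* 3 within the control range.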
